A study of Saccharomyces cerevisiae with 11 samples.

Results

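The interval from 48 h to 72 h of growth with the antifungal aureobasidin, at the dose labelled 150, was examined over the library entries that had reads at both times. Of 12400 entries in the count table, 2522 (20.3%) met this rule, and they held 99.9993% of all reads at 72 h and 99.95% at 48 h. A further 52 entries were read at 72 h only, 804 were read at 48 h only, and 9022 were read at neither time. The study placed designed peptides of 20 residues in Y2H Gold, a yeast reporter strain, as candidate transcriptional activation domains, and counted each design by sequencing DNA recovered from the cultures. The groups used here were Y2H Gold cultures with the label 150 at 72 h and at 48 h, and the same label at 12 h and 24 h. Cultures with the label 200 at 72 h and at 48 h, and untreated cultures at 0 h, 12 h and 24 h (label 0), were used as well. The growth protocol is worded alike for every sample, the untreated ones included, and names the drug, so the untreated groups rest on their own labels. All were grown in medium without tryptophan and diluted daily, per the labels' protocols. Every group consisted of 5 sub-libraries, each carrying its own replicate barcode. The series text calls the barcodes biological replicates, but no label says that they were grown apart, so the p-values rest only on barcoded sub-libraries. Where a test pairs the barcodes, they measure how far the change varied between sub-libraries. Otherwise the differences in level between sub-libraries count as well. The doses are given as their label numbers without a unit, since the labels state 2 different units for them.

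Aureobasidin A blocks an essential enzyme of sphingolipid synthesis in yeast, and in this strain a resistant form of that enzyme is a reporter gene that an activation domain must switch on. Activation domains are short, often acidic stretches of transcription factors in which aromatic and leucine residues contact coactivators such as Mediator. Cells whose peptide activates the reporter more strongly can therefore leave more descendants under the drug, and the share of reads held by a design follows its relative growth in the pool. A share can fall while the cells carrying the design still divide, because all designs compete for 100% of the reads.

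Most of the entries described below are built from tryptophan (W), aspartate (D) and glycine (G). The substitution sets take 100 such parent peptides and exchange some or all residues of 1 kind for another, so a change written G5L means that the parent has glycine and the variant leucine at position 5, counted from 1 at the first residue. Each entry also has a DNA barcode of its own in the table, 20 bases long, shown here for the entries on which the account turns. The first 5 gained share, 4 of them by the largest fitted folds, the sixth belongs to the unsubstituted parent of the first, and the last 2 had risen early and then lost share.
entry 8135: ggccacatgtgtctgtcttt
entry 8122: gatgttgtagagcttgatcg
entry 8113: tcttccctggacagaaagtg
entry 8824: ctgtgaacgcattcgctagc
entry 6843: taagagcgtgaggatacttt
entry 12035: aagcttagcctctttcccga
entry 9237: taacacggtcgtcgtgctgg
entry 8145: cgttactgggcttcggcttc

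Total counts per sub-library ranged from 1176575 to 2807017 at 72 h and from 1360402 to 2950345 at 48 h. The sub-libraries differed among themselves in which designs were abundant, and the deviations of the 72 h column from its group mean correlated with those of the 48 h column of the same barcode at 0.917 to 0.938. Columns of different barcodes gave values between -0.283 and -0.163. Deviations from a group mean cancel within the group, so these negative values follow from the same-barcode correlations and are no separate evidence. From the same-barcode correlations, a replicate number was taken to mark 1 sub-library followed over time and was used as a block. The 153 designs that begin with a stop codon had no read at 72 h, below a floor of 0.302 CPM that 3 counts over the 5 sub-libraries set, and 6 reads at 48 h, in 4 entries.

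The pool narrowed onto few designs between 48 h and 72 h. The most abundant design of a sub-library held 10.9% ± 3.22 of the reads at 72 h and 3.19% ± 0.715 at 48 h (SD, n = 5 each). The 10 most abundant held 29.6% ± 2.40 at 72 h and 15.8% ± 0.764 at 48 h, and the 50 most abundant 57.5% ± 2.18 at 72 h and 40.0% ± 1.94 at 48 h. The effective number of sequences, which is the inverse Simpson index of the shares, was 52.9 ± 13.4 at 72 h and 188 ± 13.6 at 48 h. Designs with at least 1 read numbered 1990 ± 71.9 at 72 h and 2580 ± 91.3 at 48 h. In each of these 5 measures the ranges of the groups did not overlap. The exact permutation test over the 10 columns gave p = 0.00794 (two-sided, also after adjustment over the 5 measures), the smallest value it can give. That test ignores that the same sub-libraries were read at both times. The exact sign-flip permutation test within barcodes gave p = 0.0625 for each measure, the smallest that test can give. Earlier in the course the effective number was 1595 in the untreated culture at 0 h and, with the label 150, 769 at 12 h, 455 at 24 h, 188 at 48 h and 52.9 at 72 h. Untreated cultures also narrowed, to 847 at 12 h and 726 at 24 h.

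Of the 2522 entries with reads at both times, 1887 averaged at least 10 counts across the 10 columns and were tested, and 635 averaged fewer. With counts scaled to column totals and barcode as a block, edgeR's quasi-likelihood test called 135 entries higher at 72 h, which is 7.15% of those tested, and 1632 lower, which is 86.5% (Benjamini-Hochberg adjusted p under 0.05). The median log2 change of share over all tested entries was -1.42. Rises were mostly small: 43 reached 1.5-fold and 4 reached 2-fold, and their median log2 change was 0.41. Falls were larger, with 1174 of at least 2-fold and 643 of at least 4-fold. An entry with few reads at 72 h could pass the filter through its 48 h reads alone, so these counts of falls describe only the entries that passed. Among the rises 117 were higher in 5 of 5 barcodes, and among the falls 1477 were lower in 5 of 5. Without the barcode block 1 rise and 162 falls were called.

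The balance of rises and falls depended on the scaling. TMM factors moved the median log2 change by 1.18 and gave 651 rises and 887 falls. DESeq2's size factors moved it by 1.25 and gave 666 rises and 776 falls. A fall in share of less than about that size is therefore a fall against the pool's total and a rise against its typical member, and both readings are given where they part. Rises in share kept their direction under both scalings in all entries named below. Both moved the median upward, so a rise could hardly turn negative, and the kept direction is no check of the rises.

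In percentage points of reads, 275 entries gained and 3103 lost. The gains came to 24.4 points, of which the single entry 8135 took 7.81 ± 2.42 points (SD, n = 5 barcodes) and the 10 largest together 57.5% of the whole. The losses were spread more widely, and the 10 largest made up 7.18% of them.

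Entry 8135, with the 3 substitutions G5L, G12L and G16L, became the leading design of the pool. In barcodes 1 to 5 it held 12.7%, 15.1%, 9.80%, 10.3% and 5.94% of the reads at 72 h, against 3.54%, 4.29%, 2.68%, 2.65% and 1.62% at 48 h. It was the only tested entry whose 72 h values all lay above its 48 h values, whereas 206 tested entries lay wholly below. Its log2 change was 1.87 (SE 0.031, adjusted p = 2.07e-16), and the fold within a barcode ran only from 3.52 to 3.89 although the shares differed much more between barcodes. At 0 h this entry held 0.108% of the reads, at 12 h 0.236%, at 24 h 0.622%, at 48 h 2.96% and at 72 h 10.8%. It was the most abundant design at both times in barcodes 1 to 4. Without the block it was the 1 rise still called.

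Barcode 5 was led at both times by entry 8122, in which 5 glycines were replaced (G1L, G6L, G11L, G12L and G15L). This entry held 1.20%, 3.14%, 1.03%, 0.589% and 6.52% of the reads in barcodes 1 to 5 at 72 h, against 0.524%, 1.40%, 0.431%, 0.244% and 2.80% at 48 h. The ranges overlapped, but every barcode gained by 2.24-fold to 2.41-fold, and the log2 change was 1.22 (SE 0.033, adjusted p = 1.67e-13).

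Entry 8113 (G3L, G4L, G13L and G18L) held 2.04%, 0.640%, 0.785%, 0.492% and 0.485% at 72 h, against 0.985%, 0.281%, 0.344%, 0.223% and 0.207% at 48 h. Its log2 change was 1.16 (SE 0.038, adjusted p = 3.81e-13), with barcode 1 well above the others at both times. The only entry among the 4 rises of at least 2-fold that carried no added leucine was 8824, a proline variant (G1P, G5P and G18P). It held 1.77%, 0.540%, 3.17%, 0.358% and 2.47% at 72 h, against 0.895%, 0.270%, 1.49%, 0.168% and 1.17% at 48 h, which gave a log2 change of 1.04 (SE 0.034, adjusted p = 4.05e-13). Within a barcode its folds ran from 1.97 to 2.12.

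Other abundant designs gained less. Entry 8168, the third in mean share at 72 h, held 2.13% ± 0.777 at 72 h and 1.30% ± 0.492 at 48 h (SD, n = 5 each; log2 0.72), and entry 8210, with methionine in place of 3 glycines, 1.52% ± 1.10 at 72 h and 0.992% ± 0.690 at 48 h (log2 0.61). Entry 10797, which has 9 tryptophans, 7 aspartates, 4 glycines and no other residue, was among the 10 largest at both times and rose by a log2 of 0.11 (SE 0.033, adjusted p = 0.00393). Entry 8240, a methionine variant, rose by 0.24 on the log2 scale (adjusted p = 1.17e-05). Both of these rises were in 5 of 5 barcodes.

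Designs that share a parent and the exchanged positions differ only in the residue put in. The 4 families described here, those of the 4 largest rises, were chosen after their values were seen, and the 11 glycine substitutions of each parent are described with no test between them. Parent 12035 itself had a log2 change of -1.46 (0.00699% of reads at 72 h, 0.0193% at 48 h). With its glycines 5, 12 and 16 exchanged, leucine gave the 1.87 of entry 8135 and methionine (entry 8235) gave 0.85, while the other 8 tested variants fell, as did 86.5% of all tested entries. Among these 8, valine (entry 7935) gave -1.02, a fall in share that became a rise of 0.15 with TMM factors and 0.23 with DESeq2. The isoleucine variant of the same positions had no read at either time.

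Parent 12022 had a log2 change of -2.41. Leucine at its 5 positions gave the 1.22 of entry 8122, methionine (entry 8222) gave 0.68, and the other 5 tested variants fell, again beside 86.5% of all tested entries. The remaining 4 variants had no read at 72 h. In the family of parent 12013 (-1.43), leucine gave the 1.16 of entry 8113 and methionine 0.30 (entry 8213), whereas isoleucine gave -0.79 (entry 8013), which was 0.38 with TMM factors and 0.46 with DESeq2. Parent 12024 (-0.61, and above 0 with both other scalings) differed in that proline stood first: entry 8824 gave 1.04, leucine 0.62 (entry 8124) and isoleucine -0.04 (entry 8024), which did not pass the test. A variant of that parent with all 7 tryptophans exchanged for leucine, entry 7224, rose by 0.85 (0.199% of reads at 72 h, 0.111% at 48 h). In 3 of the 4 families leucine and methionine were the substitutions that rose, and in the family of 12024 they were proline and leucine.

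Read counts summed by design set gave 76 sets with enough reads, of which 3 rose (3.95%) and 68 fell (89.5%) in share. TMM factors gave 24 and 39, and DESeq2 29 and 37. The set with some glycines exchanged for leucine held 36.6%, 33.6%, 35.2%, 31.9% and 38.3% of the reads in barcodes 1 to 5 at 72 h, against 21.8%, 18.8%, 21.9%, 19.9% and 24.9% at 48 h. The ranges did not overlap, and the log2 change of the set was 0.72 (adjusted p = 1.36e-09). Of its 73 tested entries 33 rose and 35 fell, where 7.15% of all tested entries rose and 86.5% fell. The median of their log2 changes was 0.00, against the -1.42 of all tested entries. Without entry 8135 the rest of the set held 24.4% ± 5.17 of the reads at 72 h and 18.5% ± 3.18 at 48 h (SD, n = 5 each) and was higher at 72 h in 5 of 5 barcodes.

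The corresponding methionine set held 18.9% ± 3.30 at 72 h and 16.6% ± 2.29 at 48 h (SD, n = 5 each), with 30 rises and 42 falls among 82 tested entries, where 7.15% of all tested entries rose and 86.5% fell (log2 change of the set 0.18, adjusted p = 0.00129). The tryptophan-aspartate controls, simple arrangements of the 2 residues with or without glycine, were the other set that rose, with 3.34%, 5.27%, 2.13%, 1.56% and 2.00% in barcodes 1 to 5 at 72 h, against 2.41%, 3.95%, 1.84%, 1.08% and 1.52% at 48 h (log2 0.41, adjusted p = 2.00e-05). Without the block the adjusted p was 0.226 for the methionine set and 0.351 for these controls. The proline set held 7.58% ± 1.97 at 72 h and 7.29% ± 1.13 at 48 h, and its log2 change of 0.03 did not pass the test (adjusted p = 0.664), although TMM factors gave 0.97 and DESeq2 1.15, both past it. The isoleucine set, with 3.46% ± 0.592 at 72 h and 3.75% ± 0.464 at 48 h, had a log2 change of -0.12 (adjusted p = 0.0531) that TMM factors and DESeq2 turned positive. The alanine set fell by 0.68 on the log2 scale, the unsubstituted parents (set32) by 0.42 and the set of designs with varied neighbours of tryptophan (W-neighbors-3) by 0.81, and these 3 were likewise above 0 with TMM factors and DESeq2. Sets 8 and 24, with log2 changes of -1.35 and -1.70, were below 0 under every scaling.

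Each substitution variant was also set against its own parent where both were tested, where a scaling factor common to all entries drops out. The variant had the higher log2 change in 68 of 76 pairs for methionine in place of glycine (median difference 1.44), in 60 of 70 for leucine (1.32) and in 70 of 80 for proline (0.81). Polar asparagine gave a median of 0.60 over 83 pairs, and alanine 0.32, glutamine 0.28, isoleucine 0.28 and threonine 0.21. Valine (-0.33), serine (-0.54) and cysteine (-0.96, higher in 1 of 25 pairs) had medians below 0. Exchanges of tryptophan for other hydrophobic residues also differed by the residue put in: leucine at some tryptophans gave 0.88 (63 of 71 pairs higher) and phenylalanine 0.54 (61 of 74), while tyrosine gave -1.92 and was higher in none of 25 pairs. Where all tryptophans were exchanged, the median was 0.71 for leucine and 0.63 for phenylalanine, and no tyrosine variant had enough reads to be tested. Glutamate in place of some aspartates gave -0.48 and in place of all aspartates -1.32, although both residues are acidic. The sign of each of these medians was the same with DESeq2, which used the same counts, so this is no independent check. Pairs enter only where variant and parent both kept enough reads, so the medians describe survivors on each side.

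Variants with the same parent and the same exchanged positions were also set against each other. Over 70 such pairs of leucine and methionine, leucine had the higher log2 change in 39 and methionine in 31, with a median difference of 0.16. Against proline the median difference of leucine was 0.42 over 71 pairs, against isoleucine 1.41 over 34, against valine 1.77 over 42 and against cysteine 2.12 over 24. Leucine and isoleucine have the same atoms and differ in where the side chain branches, and leucine stood higher in 32 of the 34 pairs.

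The residue content of the pool shifted with these designs. Weighted by reads, a peptide held 1.49 ± 0.145 leucines at 72 h and 1.08 ± 0.102 at 48 h (SD, n = 5 each), with non-overlapping ranges (exact permutation test, p = 0.00794, adjusted p = 0.0175 over 22 measures). Tryptophan came to 6.19 ± 0.0571 residues at 72 h and 6.05 ± 0.0601 at 48 h, aspartate to 6.31 ± 0.0720 at 72 h and 6.14 ± 0.0577 at 48 h, and glycine to 4.26 ± 0.0753 at 72 h and 4.68 ± 0.0746 at 48 h. The net charge per peptide was -6.33 ± 0.0639 at 72 h and -6.19 ± 0.0521 at 48 h. These 4 measures also passed the exact permutation test, with adjusted p between 0.0175 and 0.0233. Methionine, at 0.716 ± 0.121 residues at 72 h and 0.651 ± 0.0878 at 48 h, did not (adjusted p = 0.358), nor did proline (0.651). That test ignores the pairing of the barcodes: methionine was higher at 72 h in 5 of 5 barcodes, by 0.0655 ± 0.0446 residues. In the exact sign-flip permutation test within barcodes, methionine and leucine alike had p = 0.0625, the smallest that test can give. With entry 8135 left out the adjusted p of leucine was 0.0635, of tryptophan 0.164, of aspartate 0.0672 and of net charge 0.0748, while glycine still passed.

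Across tested entries the change of share varied with composition, described here over designs that are not independent of each other. Entries with at most 2 glycines had a median log2 change of -0.88 (148 entries), those with 5 or 6 glycines -1.36 (385 entries) and those with 9 to 12 glycines -2.31 (212 entries). The order ran the other way for aspartate, with a median of -2.58 and no rise at 2 or fewer (89 entries), -1.36 at 5 or 6 (723) and -1.06 at 7 or 8 (691). Leucine gave no steady order: the median was -1.55 with none (1543 entries, 5.51% rose), -1.72 with 1 or 2 (63 entries), -0.88 with 3 (148 entries), -0.39 with 4 (74 entries, 27.0% rose) and -0.69 with 5 to 9 (59 entries, 15.3% rose). Entries with 4 to 6 methionines had a median of -0.18, with 19 of 50 rising (38.0%). Designs that contained glutamate had a median of -2.18 and no rise among 124. Those with tyrosine (88 entries, 1 rise) or arginine (44 entries, 1 rise) had medians of -2.52. Whether these few rises differ from the 7.15% of all tested entries was not tested. Tryptophan and aspartate next to each other went with smaller falls: the median was -1.65 with no such neighbours (474 entries) and -0.23 with 9 to 19 of them (28 entries).

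Between the label 150 at 24 h and the untreated culture at 0 h, which differ in both drug and time, 639 of 3744 tested entries (17.1%) were higher at 24 h and 51.2% lower. Of the 639 early risers, every entry was still tested between 48 h and 72 h. In that later interval 118 of them rose again, 46 were not called and 475 (74.3%) fell, against 86.5% of all tested entries. With the scaling changed in both intervals, early risers that then fell numbered 278 with TMM factors and 199 with DESeq2, and 0 in edgeR without the barcode block, also 0 at an unadjusted p under 0.05. The rest of this account uses the calls on column totals. The 475 held 20.3% of the reads at 0 h, 46.4% at 24 h, 41.8% at 48 h and 25.4% at 72 h. The 118 held 4.75% at 0 h, 16.6% at 24 h, 37.4% at 48 h and 61.2% at 72 h. These groups were split by their change from 48 h to 72 h, so their order at 72 h follows in part from that choice. They also differ in number of entries, so the summed shares do not compare single designs. The median log2 rise of the 475 from 0 h to 24 h had been 0.96, against 1.61 for the 118. Of the 221 entries that had already fallen by 24 h and were still tested, none rose and 214 fell. The 135 rises of the late interval included 17 entries that had not been called at 24 h. With the interval from 24 h to 48 h taken as the earlier one, which shares its 48 h columns with the later one, 121 of 285 earlier rises (11.8% of those tested then) rose again and 114 fell.

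The 2 groups of early risers overlapped in composition. The 475 that fell averaged 5.45 ± 2.47 glycines, 5.41 ± 2.57 tryptophans and 5.78 ± 1.78 aspartates per peptide (SD over entries), and 21.1% of them held leucine. Among the 118 that rose again the averages were 4.06 ± 1.83 glycines, 5.96 ± 2.18 tryptophans and 6.58 ± 1.22 aspartates, and 36.4% held leucine. Of the 118, 32 (27.1%) came from the leucine set and 30 (25.4%) from the methionine set. Of the 475 that fell, 26 (5.47%) were leucine variants of glycine and 27 (5.68%) methionine variants. These sets made up 3.87% and 4.35% of all tested entries.

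Entry 9237 was an early riser that then lost share. This design of 8 tryptophans, 7 aspartates and 5 glycines held 0.176% of the reads at 0 h, 0.309% at 12 h, 0.458% at 24 h, 0.688% at 48 h and 0.401% at 72 h. By barcode it held 0.135%, 0.459%, 0.157%, 0.241% and 1.01% at 72 h, against 0.245%, 0.858%, 0.266%, 0.431% and 1.64% at 48 h. It was lower at 72 h in 5 of 5 barcodes and made the largest loss in percentage points, with a log2 change of -0.81 (SE 0.039, adjusted p = 1.80e-11) that was 0.36 with TMM factors and 0.44 with DESeq2. Its share had been above that of entry 8122 at 24 h (0.338%).

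Some designs with added leucine also lost share. Entry 8145 (G6L and G17L, with 8 tryptophans and 8 aspartates) held 0.181%, 0.352%, 0.670%, 0.233% and 0.490% at 72 h, against 0.293%, 0.570%, 1.09%, 0.332% and 0.769% at 48 h. Its log2 change was -0.65 (SE 0.039, adjusted p = 1.61e-10), and 0.52 with TMM factors. Entry 8114 (G1L, G6L and G11L) had the largest 48 h share of those that rose early and then fell, with 0.509% ± 0.334 at 72 h and 0.700% ± 0.481 at 48 h (log2 -0.43, and 0.75 with TMM factors). Entry 8162, with 4 leucines, fell by 0.18 and the methionine variant 8193 by 0.23 on the log2 scale, both above 0 with TMM factors and DESeq2. The proline variant 8839 fell by 0.55, again with the opposite sign under those scalings.

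Larger losses were below 0 with TMM factors and DESeq2 as well. Entry 9207, with 9 tryptophans, 6 aspartates and 5 glycines, held 0.0762% ± 0.0399 at 72 h and 0.220% ± 0.112 at 48 h (log2 -1.54), and the valine variant 7912 held 0.0840% ± 0.0735 at 72 h and 0.224% ± 0.209 at 48 h (log2 -1.39). The 10 largest falls by fold were of designs nearly gone at 72 h, with fitted log2 changes from -6.59 to -5.26 that rest on few reads. Entry 9999 (8 tryptophans, 5 aspartates and 7 glycines) had 2 reads in all at 72 h and 263 at 48 h, 221 of them in barcode 5. Its summed share was 128-fold higher at 48 h, with a 95% counting interval from 35.1 to 1062. Entry 9276 had 9 reads at 72 h and 375 at 48 h, a 40.5-fold difference with an interval from 21.1 to 89.3. Both entries were picked for their large falls and passed the filter through their 48 h reads. The intervals pool the barcodes and cover counting error only, so they lend no support to the size of these falls. The most abundant of the 804 entries lost altogether had no read at 72 h and 146 reads at 48 h, which is at least 47.3-fold lower against a floor of 3 counts over the 5 sub-libraries. The median count at 48 h of those 804 was 3.

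The tryptophan-aspartate controls hold residue composition constant while the order changes. A peptide of 8 glycines followed by 7 tryptophans and 5 aspartates in mixed order (entries 6840 to 6843) held 1.57% ± 1.03 of the reads at 72 h and 0.868% ± 0.566 at 48 h (SD, n = 5 each). The peptide with the same residues but nearly all aspartates before the tryptophans (entries 6844 to 6847) had 14166 reads at 0 h, 432 at 24 h, 11 at 48 h and none at 72 h. Likewise, 5 tryptophans in 1 block flanked by aspartates (entries 6832 to 6835) held 1.23% ± 0.651 at 72 h and 1.18% ± 0.665 at 48 h, whereas the same residues with all tryptophans last (entries 6836 to 6839) had 13729 reads at 0 h, 605 at 24 h, 16 at 48 h and 1 at 72 h. Strict alternation of 10 tryptophans and 10 aspartates (entries 6824 to 6827) held 0.0655% ± 0.0307 at 72 h and 0.110% ± 0.0584 at 48 h, and the arrangement in 2 blocks (entries 6828 to 6831) had 1563 reads at 0 h and none at 24 h, 48 h or 72 h.

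Entries that encode the same peptide give a measure of the repeatability of a design. Of the entries 6840 to 6843, 3 were tested and all rose, by log2 changes of 0.90, 0.58 and 0.98. Entry 6843 held 0.128%, 2.49%, 0.236%, 0.797% and 0.282% at 72 h, against 0.0580%, 1.37%, 0.117%, 0.413% and 0.144% at 48 h. Entry 6840 was led by barcode 1 instead, with 1.72% at 72 h and 0.973% at 48 h, so that the abundant sub-library differed between entries of the same peptide while the change was alike. The 4 entries 6832 to 6835 changed by -0.02 to 0.15, of which 2 rose, and the 3 tested entries of the alternating peptide by -0.80 to -0.52, falls that were 0.38 to 0.66 with TMM factors. Over the 11 peptides with at least 2 tested entries, the range between entries of a peptide had a median of 0.36 on the log2 scale, from 0.04 to 1.25, beside an interquartile range of 1.74 over all tested entries. In 9 of the 11 all entries had the same sign, but 86.5% of all tested entries fell, so a shared sign alone says little about repeatability.

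Natural activation domains served as controls and took few of the reads. The Oaf1 segment, from the yeast factor that responds to oleate, held 1.01% ± 0.0933 at 72 h and 0.937% ± 0.0405 at 48 h over its 4 entries, and the log2 change of the set was 0.11 (adjusted p = 0.115). Of its entries 6782 rose by 0.42 and the others had values between -0.02 and 0.04. The doubled minimal segment of VP16, a herpesvirus activator, changed by 0.02 to 0.24 over 4 entries, of which 1 rose. Of all tested entries 86.5% fell, and so did 4 of 4 of the 21-residue VP16 segment, by log2 changes between -2.43 and -1.94. The more C-terminal of the Gal4 segments, from the yeast galactose regulator, fell in 3 of 3 tested entries with a median of -1.09, which was 0.12 with TMM factors and 0.16 with DESeq2 for entry 6749. KLF4 and EKLF, mammalian Krüppel-like factors, fell in 3 of 3 tested entries each, with medians of -2.22 and -2.01.

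The same interval with the label 200 shares no column with the label 150. The only untreated group at 0 h is common to both labels, so they are not taken as independent. With the label 200, 9172 entries had reads at both times, against 2522 with the label 150. Designs read per sub-library at 72 h numbered 5019 ± 510 (SD), against 1990 ± 71.9 with the label 150. Of the 1764 entries tested with the label 200, 83 rose (4.71%) and 1597 fell (90.5%). TMM factors gave 573 and 813 there, and DESeq2 608 and 719. Of the 135 entries that rose with the label 150, 81 also rose there, 37 were not called and 17 fell. The changes of the 1747 entries tested with both labels correlated with a Spearman rho of 0.954, given as a description. With the label 200, entry 8135 held 19.5% ± 5.71 of the reads at 72 h and 4.40% ± 1.52 at 48 h (SD, n = 5 each), a log2 change of 2.17 beside the 1.87 with the label 150. In a fit of both labels the difference of the changes (150 minus 200) was -0.30 for this entry (adjusted p = 1.04e-04), and -0.87 with TMM factors. That fit called the difference above 0 in 1044 of 1844 entries (56.6%) and below 0 in 21 (1.14%), counts that became 135 and 155 with TMM factors and 0 and 0 in edgeR without the barcode block, where an unadjusted p was under 0.05 in 5 and 1. Entry 8824 changed by 1.04 with the label 150 and 1.08 with the label 200. The median difference over that fit was 0.67, and 0.10 with TMM factors. The early riser 9237 was near that median, with a difference of 0.64 between -0.81 with the label 150 and -1.45 with the label 200.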

How the data were processed

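The library was ordered as synthetic DNA, given its replicate barcodes in a primer step, put into yeast on plasmids and read back by PCR and sequencing, per the labels' protocols. Cutadapt and STAR appear in the submitters' processing notes without a stated role. The deposited table holds read counts, whole and unscaled, for every design in every barcoded sub-library. The assignment of reads to designs is not given in the sources used here. The labels name no molecular identifiers, and PCR reads without them are not separate molecules, so intervals and floors cover counting error only.

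From these counts, 72 h was compared with 48 h for the label 150 by edgeR 4.0.16 in R 4.3.3 (quasi-likelihood, two-sided), scaled to column totals, with the barcode number as a block. Entries entered with reads in both groups and an average of 10 counts or more, and the threshold was a Benjamini-Hochberg adjusted p of 0.05. Sets were fitted on summed counts. Measures with 1 value per sub-library were compared by exact permutation over 5 against 5 columns. TMM factors, DESeq2 1.42.0, other filters, no block and leaving out each barcode were alternatives. Leaving out the most abundant entry was added after seeing the data. On simulated counts for this comparison, 94.9% of 196 changed entries among 1869 were recovered. There most entries were left unchanged, and totals were padded so that the changes of some did not shift the shares of the rest. The changes put in were of about 1.5-fold or more, whereas most rises in the data were smaller and most entries changed. The rate is therefore not the power of the calls reported here.

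The numbers pair the samples because a barcode marks 1 cloned sub-library, and the deviations of all 5 correlated best with their own number. The comparison, the entries and the lists were chosen with earlier results of these data known. Named entries are the 10 largest rises and falls by fold, shares at each time, gains and losses in points and early risers that fell, besides the control activation domains. The families and the entries of shared composition were added after their values were seen. Peptide letters are not printed.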

Additional observations from a re-analysis of the deposited data

Results flagged for a closer look

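In several entries 1 sub-library stood apart from the other 4 of its group, by a gap larger than Dixon's 95% critical value, which chance exceeds in about 1 of 20 groups. Barcode 1 was highest for entry 8113 (2.04% of reads at 72 h, 0.985% at 48 h), entry 6840 (1.72% at 72 h, 0.973% at 48 h), entry 7912 (0.214% at 72 h, 0.595% at 48 h) and the Gal4 entry 6749 (0.0176% at 72 h, 0.0339% at 48 h). Barcode 2 was highest for entry 8240 (2.69% at 72 h, 2.39% at 48 h), entry 6843 (2.49% at 72 h, 1.37% at 48 h), entry 8213 (0.248% at 72 h, 0.211% at 48 h) and entry 6815 of the doubled VP16 segment (0.0135% at 72 h, 0.0102% at 48 h). Barcode 3 was highest for entry 6833 (0.236% at 72 h, 0.242% at 48 h), entry 7935 (0.421% at 72 h, 0.835% at 48 h) and, at 72 h, parent 12013 (0.00456%). Barcode 5 was highest for entry 9999 (0.000111% at 72 h, 0.0117% at 48 h) and, at 72 h, entry 8839 (1.17%), and barcode 4 for the 1 read of entry 9502 (8.50e-05% at 72 h). In the Oaf1 set barcode 1 was lowest at 72 h, at 0.850%. Entry 6815 had a log2 change of -0.30 when barcode 2 was left out.

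The change between 48 h and 72 h differed between the labels 150 and 200 in several abundant designs, by the interaction term of a fit over both labels. On the log2 scale the change with 150 minus that with 200 was below 0 in entries 8135 (-0.30), 8235 (-0.31), 8122 (-0.23), 6843 (-0.33) and 6840 (-0.23). It was above 0 in entries 8102 (0.44), 10797 (0.41), 8210 (0.33), 8168 (0.28), 8112 (0.21), 8222 (0.19) and 8173 (0.16) with counts scaled to column totals. TMM factors moved the median difference by -0.57, and all 7 were below 0 with them. Of all 1844 entries in that fit, 1044 differed upward and 21 downward on column totals, 135 and 155 with TMM factors, and 0 and 0 in edgeR without the barcode block (5 and 1 at an unadjusted p under 0.05).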

How the results depend on the processing

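Counts of calls moved most with the scaling and the block. TMM factors gave 651 rises and 887 falls of entries, 24 and 39 of sets, 573 and 813 with the label 200, 135 and 155 for the difference of the labels, and 278 early risers that fell. DESeq2 gave 666 and 776, 29 and 37, 608 and 719, and 199 early risers that fell. Without the replicate block, calls came to 1 and 162 entries, 1 risen set, 1 and 658 with the label 200, 0 and 0 for the difference of the labels (5 and 1 at an unadjusted p under 0.05, edgeR) and 0 early risers that fell. Barcode differences then count as error, as the fit is built, and 41 of the 52 named entries no longer passed. A minimum mean of 50 left 12 downward differences of the labels, and leaving out entry 8135 gave 6 risen sets. With 48 h against 24 h as the earlier interval, 114 early risers fell. Leaving out 1 barcode gave 124 to 132 rises, 1585 to 1641 falls and 12 to 18 downward differences of the labels.

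The exact sign-flip permutation test within barcodes, which keeps the replicate block, cannot go below p = 0.0625. It therefore missed the threshold with the same differences, 72 h minus 48 h, of -134.9 in effective number, 7.69, 13.8 and 17.5 points in the top 1, 10 and 50 designs, -590 designs read, and 0.404 leucines, 0.140 tryptophans, 0.167 aspartates, -0.416 glycines and -0.140 units of charge per peptide. Without 1 barcode the exact test reaches at best 0.0286 before adjustment. These differences then ran from 0.389 to 0.424 for leucine, 0.127 to 0.155 for tryptophan, 0.158 to 0.178 for aspartate, -0.433 to -0.404 for glycine and -0.152 to -0.131 for charge. Without entry 8135 they were 0.276 for leucine, 0.0715 for tryptophan, 0.110 for aspartate and -0.0840 for charge. Proline changed sign (0.00921), as it did with peptides of at least 10 reads weighted equally (0.0190), where methionine (0.0173) passed. That weighting turned the sign of 6 of the 22 measures.

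Many falls in share smaller than the shift of the median turned positive under both other scalings. With TMM factors and with DESeq2 the log2 changes were 1.16 and 1.23 for entry 6834, 0.44 and 0.51 for 6824, 0.66 and 0.73 for 6825, 0.38 and 0.45 for 6826, 0.36 and 0.44 for 9237, 0.52 and 0.59 for 8145, 0.63 and 0.70 for 8839, and 0.75 and 0.82 for 8114. They were 1.00 and 1.07 for 8162, 0.94 and 1.01 for 8193, 1.15 and 1.23 for 6781, 0.12 and 0.16 for 6749, 0.38 and 0.46 for 8013, 1.13 and 1.20 for 8024, 0.15 and 0.23 for 7935, and 0.56 and 0.62 for 12024. The sets gave 0.82 and 1.00 for isoleucine, 0.26 and 0.44 for alanine, 0.52 and 0.70 for set32, and 0.13 and 0.32 for W-neighbors-3. Without entry 8135, entries 6834 (0.10), 6781 (0.10) and 8024 (0.079) were above 0. Without the block 6781 (0.022) and 6783 (-0.023) changed sign. Leaving out 1 barcode gave changes of both signs in 6833 (-0.015 to 0.14), 6834 (-0.048 to 0.017), 6781 (-0.058 to 0.062), 6783 (-0.021 to 0.071), 6815 (-0.30 to 0.23) and the proline set (-0.035 to 0.091). The difference of the labels, 150 minus 200, turned negative with TMM factors in 8112 (-0.36), 8222 (-0.39), 8168 (-0.29), 8173 (-0.41), 8102 (-0.14), 8210 (-0.24) and 10797 (-0.16), and none of the 12 differences passed without the block. The causes of these sign changes were not tested.

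Other than these, filters and left-out barcodes changed no direction among the entries and sets reported. Depth limits the entries nearly lost at 72 h, whose folds rest on 9 or fewer reads, and the 635 entries below a mean of 10 were not tested.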
